A study of Drosophila melanogaster with 8 samples.

Results

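Open chromatin of whole Drosophila melanogaster embryos was profiled by ATAC-seq, in which the transposase Tn5 inserts adapters into accessible DNA. The regions described here carried a peak in both mutant libraries of 2.5 to 3 h (late) and in none of the other 6 libraries. Those 6 were 2 late wild-type (WT) libraries, and 2 WT and 2 mutant libraries of 1 to 1.5 h (early). Peaks of all 8 libraries that shared at least 1 bp were merged into 38545 regions, of which 642 (1.67%) met this rule and are called late-mutant-only regions below. They were chosen by the calls themselves, so the pattern of calls and the peak widths are descriptions and were not tested.

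The labels name 2 genotypes, WT and mutant, and give no allele, driver or strain for either. Every label, WT included, carries the words for mislocalized IntS11, and the mislocalization was taken to belong to the mutant. Embryos were harvested without separating tissues, and how many went into a library is not stated. Nothing in the labels tells if the paired replicates of a group came from separate collections, so the tests below measure only the spread between libraries, which may be technical. In such bulk material, a site open in more nuclei and a site more open in each nucleus cannot be told apart.

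IntS11 is the RNA-cleaving subunit of Integrator, a complex that ends many transcripts shortly after they start and trims the 3′ ends of small nuclear RNAs. In fly embryos, the transcription of zygotic genes rises as the maternal supply is replaced, and regulatory DNA opens in the same period. The repeat-rich chromatin beside the centromeres is progressively packed into heterochromatin over the same cycles. Genes that lie inside it, such as AGO3, are often very long because of repeat-filled introns.

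The peak lists held 19995 and 19035 peaks in the late mutant, 19002 and 18440 in the late WT, 18706 and 15569 in the early mutant and 25201 and 23815 in the early WT libraries. The lists give positions only. Sequencing depth is therefore unknown, and the absence of a call does not show that the DNA was closed. The shortest peak differed between libraries, at 148 and 149 bp in the late mutant against 156 and 154 bp in the late WT. In 43 of the 642 regions a late mutant peak, and in 4 of them the peaks of both late mutant libraries, were below 154 bp, the shortest called in late WT.

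The matching count for late WT was 646 regions (1.68% of all merged regions), for early WT 1679 (4.36%) and for early mutant 178 (0.462%). Another 1229 regions were called in late mutant replicate 1 alone and 944 in replicate 2 alone. Without replicate 1 the rule gave 1640 regions, and without replicate 2 it gave 1924. Just outside the rule were 665 regions called in both late mutant libraries and in exactly 1 other. That other library was early mutant replicate 1 for 156 regions and replicate 2 for 89, late WT for 135 and 119, and early WT for 94 and 72.

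Most late-mutant-only regions were narrow. Their median width was 251.5 bp in replicate 1, with a range of 148 to 1050 bp, and 237.5 bp in replicate 2, with a range of 149 to 988 bp. Only 35 of them had a mean width above 500 bp, and 141 had one below 200 bp. The peak was wider in replicate 1 in 346 regions, wider in replicate 2 in 287 and equal in 9. Across the 642 regions the widths of the replicates had a Spearman rho of 0.528, a description over regions that share the same 2 libraries. Where both called a region, they called much the same bases. The shared length was a median of 0.725 of the joint length, and it was above 0.5 in 522 regions (81.3%).

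**Figure D1:**
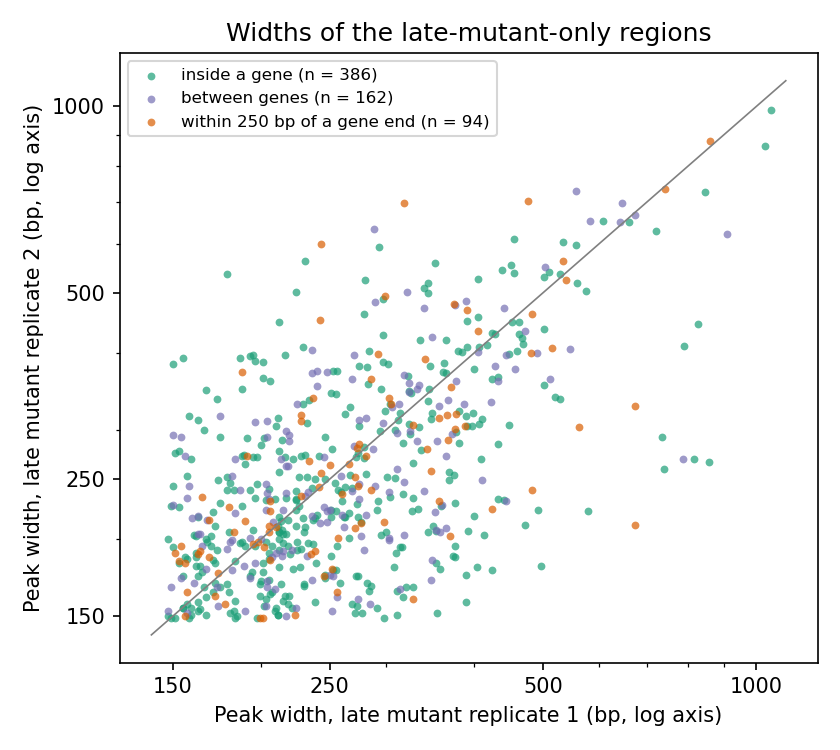
Peak width in late mutant replicate 1 (x axis, bp, log scale) against replicate 2 (y axis, bp, log scale) for the 642 late-mutant-only regions, coloured by place relative to genes. Most points lie below 500 bp in both replicates and scatter on both sides of the line of equal width.

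Among the 20 widest late-mutant-only regions, some had peaks of similar size in both replicates and others did not. The first lay inside Acer, a relative of angiotensin-converting enzyme, on chromosome 2L (dm6, 8523587 to 8524636), with peaks of 1050 and 988 bp. The next lay inside rg, an anchor protein for protein kinase A, and the overlapping gene CG15465 (X, 5208103 to 5209131), with 1029 and 864 bp. A region at fd19B, a forkhead transcription factor (X, 20091736 to 20092632), measured 859 and 878 bp. The nearest late WT peak was 57934 bp away, but a peak of early mutant replicate 1 lay 4806 bp away. A region inside CG3655 measured 846 and 727 bp. A region 20504 bp from nrm, a cell adhesion protein (3L, 23060804 to 23061734), measured 910 and 622 bp, and one at CG11294 measured 742 and 736 bp.

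Genes of the piRNA pathway and of neuronal cell surfaces were among those that followed. A region inside AGO3, a germline Argonaute that carries piRNAs (3L, 23600438 to 23601102), measured 660 and 651 bp. One inside shu, a chaperone partner in the same pathway (2R, 23842112 to 23842937), measured 826 and 445 bp, so its replicates differed more. Regions inside dpr21 (722 and 630 bp) and dpr8 (791 and 410 bp) belong to the Dpr family, immunoglobulin-type receptors of neurons that bind the DIP proteins. The nearest peak of any other library was 2782 bp from the dpr21 region and 39550 bp from the dpr8 region. Others lay 343 bp from snRNA:U5:14B, a U5 spliceosomal RNA gene (641 and 650 bp), 6345 bp from the kinase gene Stlk (557 and 730 bp) and 78462 bp from CG42402 (582 and 653 bp). The remaining regions among the 20 widest lay near CR34320 and CG3663, inside sm, Glut4EF with CG46467, plum and tyn, and inside a at the end of gom. The tyn peaks differed most in width, at 858 and 266 bp. The plum peaks, of 534 and 603 bp, overlapped least, with 200 bp shared of a joint 937 bp. In the region at the end of gom, replicate 1 had 2 peaks, and the replicates shared 329 of 850 bp. Of the 20, 11 lay inside genes, 6 between genes and 3 at gene ends, and 8 were on X.

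The share of late-mutant-only regions at gene ends was low, and as low among early-mutant-only regions. A gene end here is the stretch within 250 bp of either end of an annotated gene, so it covers starts as well as 3′ ends. Of the 642 regions, 94 were at gene ends (14.6%, exact 95% binomial interval 12% to 17.6%), 386 were inside genes away from the ends (60.1%, 56.2% to 63.9%) and 162 were between genes (25.2%, 21.9% to 28.8%). Among the 178 early-mutant-only regions, 14.6% (interval 9.77% to 20.7%) were at gene ends and 13.5% between genes. Among late-WT-only regions, 24.9% were at gene ends and 18.6% between genes. Among all merged regions these shares were 25.4% and 13.4%, and among the 6853 regions called in all 8 libraries 48.9% and 11.2%. With a window of 500 bp the gene-end share of late-mutant-only regions was 20.2%. These intervals, and those below, cover counting error only.

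Many of the intergenic regions were far from any gene. Of the 642, 86 (13.4%, interval 10.9% to 16.3%) lay more than 5000 bp from the nearest annotated gene, against 7.30% of early-mutant-only regions (3.95% to 12.2%), 5.42% of late-WT-only regions and 4.52% of all regions. Of the 86, 59 lay within 5 Mb of a centromere end, a place described below. The median distance of an intergenic region was 5552.5 bp among late-mutant-only and 5644.5 bp among early-mutant-only regions, the latter over 24 regions. It was 2908 bp among late-WT-only and 3015 bp among all regions. Median region width was 306.5 bp for late-mutant-only and 284 bp for late-WT-only regions.

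**Figure D2:**
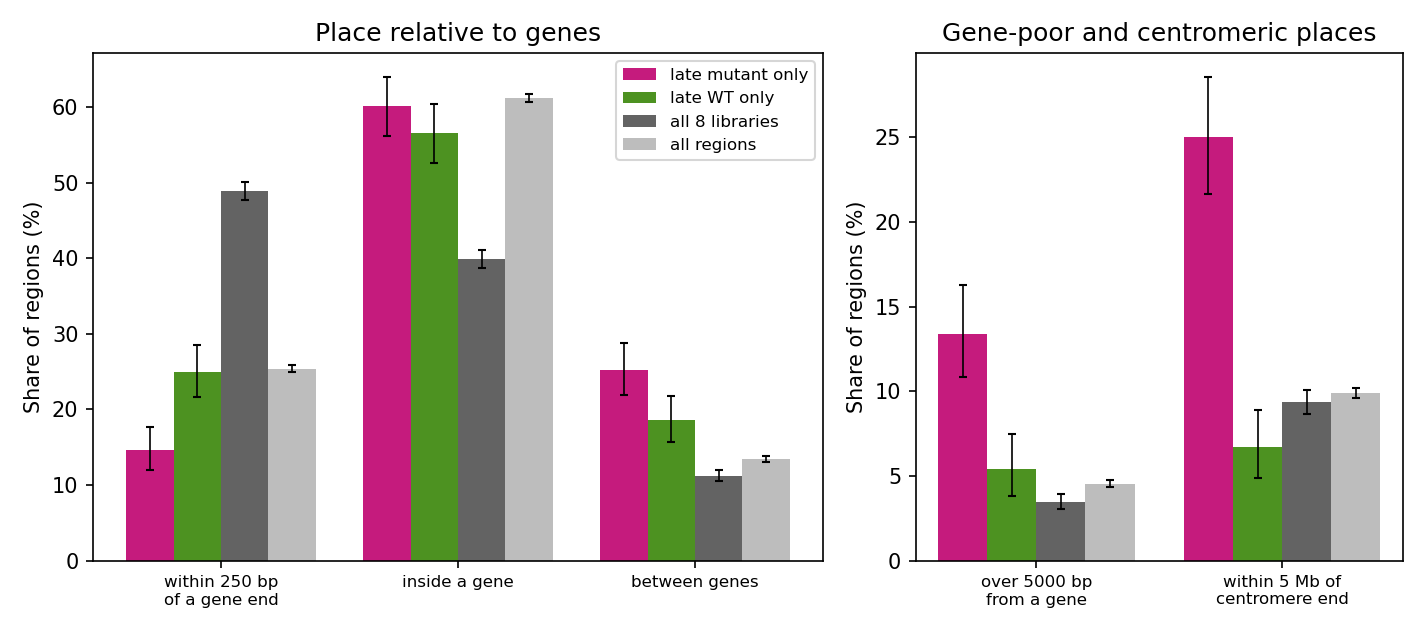
Share of regions (y axis, %) by place for late-mutant-only, late-WT-only, all-library and all merged regions, with exact 95% binomial intervals as error bars. Of the 4 kinds shown, late-mutant-only regions have the lowest bar at gene ends (14.6%) and the highest bars between genes (25.2%), over 5000 bp from a gene (13.4%) and within 5 Mb of the centromere end (25%).

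Late-mutant-only regions were frequent next to the centromeres. Distance was measured along the 5 long arms, from the first base of 2R and 3R and from the end of the last annotated gene of 2L, 3L and X. This measure was chosen after the positions had been seen. Of 636 late-mutant-only regions on these arms, 159 (25%, interval 21.7% to 28.6%) lay within 5 Mb of the centromere end. The share was 6.70% for late-WT-only, 11.3% (7.04% to 16.9%) for early-mutant-only regions, 9.35% for regions called in all 8 libraries and 9.87% for all merged regions. It was 16.6% for the 665 regions just outside the rule. With 2 other libraries calling the region it was 11.8%, with 3 it was 10.7%, and with 4 or 5 it was 9.25% and 9.45%.

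The share close to the centromere was above that of all regions on each of the 5 arms, by less on 2L and X than on 3L, 2R and 3R. Regions are not replicates and several can lie in 1 gene, so the intervals per arm are descriptions and not tests. Within 5 Mb lay 30.9% (interval 23.4% to 39.3%) of late-mutant-only regions of 3L against 4.74% of all 3L regions. The shares were 21.4% (15% to 29.0%) against 4.05% on 2R and 22.9% (16.0% to 31.1%) against 6.53% on 3R. On 2L they were 28.9% (19.5% to 39.9%) and 20.7%, and on X 22.5% (15.8% to 30.3%) and 16.9%, so that both intervals held the value of all regions. Late-WT-only regions had 0.800% on 3L, 2.63% on 2R, 3.82% on 3R, 17.1% on 2L and 10.4% on X. Read the other way, late-mutant-only regions were 4.66% to 5.52% of all merged regions in each of the 4 classes of 1 Mb nearest the centromere, and 2.72% from 4 to 5 Mb. Beyond 5 Mb they were 1.16% to 1.73% in each class. Late-WT-only regions were 0.466% to 1.37% within 4 Mb and 1.46% to 2.01% beyond 5 Mb.

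**Figure D3:**
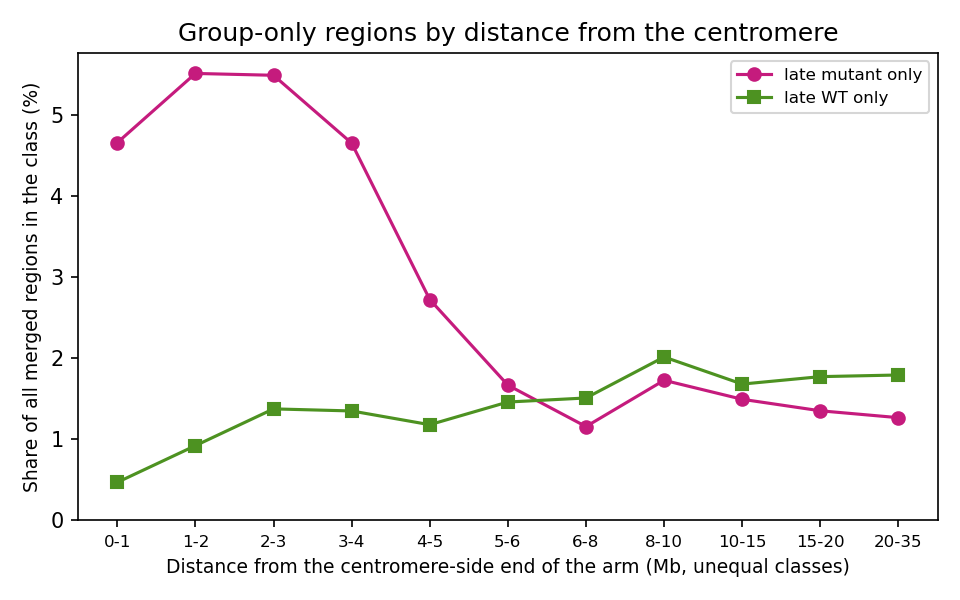
Late-mutant-only and late-WT-only regions as a share of all merged regions (y axis, %) in classes of distance from the centromere-side end of the arm (x axis, Mb, classes of unequal size). The late-mutant-only line is between 4.66% and 5.52% in the first 4 classes and at or below 1.73% from 5 Mb on, while the late-WT-only line is lowest at the left.

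The regions within 5 Mb differed from the others in their surroundings. Of these 159, only 5 (3.14%) were at gene ends, 77 were inside genes and 77 between genes, and 59 (37.1%) were more than 5000 bp from a gene. Of the 477 farther out, 89 (18.7%) were at gene ends, 83 (17.4%) between genes and 27 (5.66%) more than 5000 bp from a gene. Among the 599 late-WT-only regions beyond 5 Mb, the shares were 25.2%, 19.5% and 5.68% in the same order. Beyond 5 Mb, late-mutant-only regions were thus no more often between genes or far from genes than late-WT-only regions. Within 5 Mb, 1 of 43 late-WT-only regions was more than 5000 bp from a gene. All merged regions had 19.3% at gene ends within 5 Mb and 26.1% beyond, and 14.5% and 3.43% more than 5000 bp from a gene, so they too lay farther from genes near the centromere. Of the 20 early-mutant-only regions within 5 Mb, 1 was at a gene end, 9 were between genes and 8 (40%, interval 19.1% to 63.9%) were more than 5000 bp from a gene. The nearest late WT peak was more than 10 kb away for 70 of the 159 (44.0%) and for 83 of the 477 (17.4%). Peak widths were alike, with medians of 240 and 249 bp within 5 Mb and 255 and 235 bp beyond. How repeated sequence was treated in mapping is not given in the sources used here, and its part in the calls near centromeres was not tested.

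The remaining peaks were then counted, since the rule did not choose them, although the distance measure itself had been picked from the positions of the late-mutant-only regions. With the late-mutant-only regions left out, peaks within 5 Mb were 10.12% and 10.05% of long-arm peaks in the late mutant libraries and 9.26% and 9.21% in late WT. In early embryos they were 9.27% and 9.48% in the mutant and 8.83% and 8.68% in WT. The mutant libraries were above the WT libraries of the same age in both windows. The late difference was 0.847 percentage points (10.08% ± 0.0482 against 9.24% ± 0.0317, SD, n = 2 each, exact two-sided permutation test, p = 0.333, adjusted p = 0.355). The early difference was 0.619 points (9.37% ± 0.150 against 8.76% ± 0.110, exact permutation p = 0.333, adjusted p = 0.355). With 2 against 2 libraries, 0.333 is the smallest p possible. Over both windows, with genotypes permuted within windows, p was 0.0556, the smallest that the 36 arrangements allow (exact permutation test, adjusted p = 0.222 over 16 tests). Without late mutant replicate 1 the late difference was 0.445 points and without replicate 2 it was 0.550 points. More regions then met the rule and were left out, and the part of this in the smaller differences was not tested. The late mutant lists were also longer, and held 1934 and 1827 such peaks near centromeres against 1737 and 1678 in late WT.

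Late-mutant-only regions lay on every chromosome analysed. The X chromosome held 138 late-mutant-only regions (21.5%, interval 18.4% to 24.9%), against 20.9% of late-WT-only, 15.5% of all-library and 16.3% of all regions. Arm 2L held 12.9% against 17.5% of all regions, and 2R held 22.6% against 20.4%. Chromosome 4 held 3, inside bt, Ank and unc-13. The Y chromosome also held 3, inside Ppr-Y and near CR46188 and CG46192, among only 23 merged regions on Y. The lists held 13 and 10 peaks on Y in the late mutant and 8 and 8 in late WT, but also 13 and 12 in the early mutant and 13 and 7 in early WT, so the late mutant did not stand apart there.

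The 5 kb on each side of the late-mutant-only regions were slightly fuller of peaks in the late mutant than in late WT. Leaving out the regions themselves, peaks covered 5.58% and 5.59% of these flanks in the late mutant and 5.24% and 5.00% in late WT. The early libraries gave 3.06% and 2.59% in the mutant and 5.51% and 4.99% in WT. The late mutant libraries were above both late WT libraries, and the early mutant libraries were below both early WT libraries. The late difference was 0.466 percentage points (exact two-sided permutation test, p = 0.333, adjusted p = 0.355, n = 2 each). Without late mutant replicate 1 or 2 it was -0.166 or -0.165 points, and without late WT replicate 2 it was 0.0749 points. The rule was applied anew each time, so these values come from the flanks of 1640, 1924 and 760 regions, not of the 642. With the regions chosen anew, the difference did not hold against leaving out a single library. Leaving out a library while keeping the 642 regions was not run. Flanks of 2 kb gave 1.19 points.

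Flanks of other regions went the other way, as did the whole lists. These covered 8336 and 8048 kb in the late mutant and 8714 and 8376 kb in late WT, and the part of this in the flanks was not tested. Around late-WT-only regions, peaks covered 8.53% ± 0.0599 in the late mutant and 9.65% ± 0.214 in late WT (SD, n = 2 each). Around regions called in all 8 libraries they covered 4.18% ± 0.137 and 4.72% ± 0.124. Neither difference could pass an exact permutation test, with p = 0.333 for each and adjusted p = 0.355. The flanks of late-mutant-only regions were less covered than those of late-WT-only regions in every library. Against the flanks of all-library regions, they were more covered in the late mutant, late WT and early mutant libraries and less covered in early WT. That last comparison is between unlike measures, since only regions of the kind measured were left out. The 6853 all-library regions, of median width 724 bp, were missing from their own flanks but counted in the others.

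**Figure D4:**
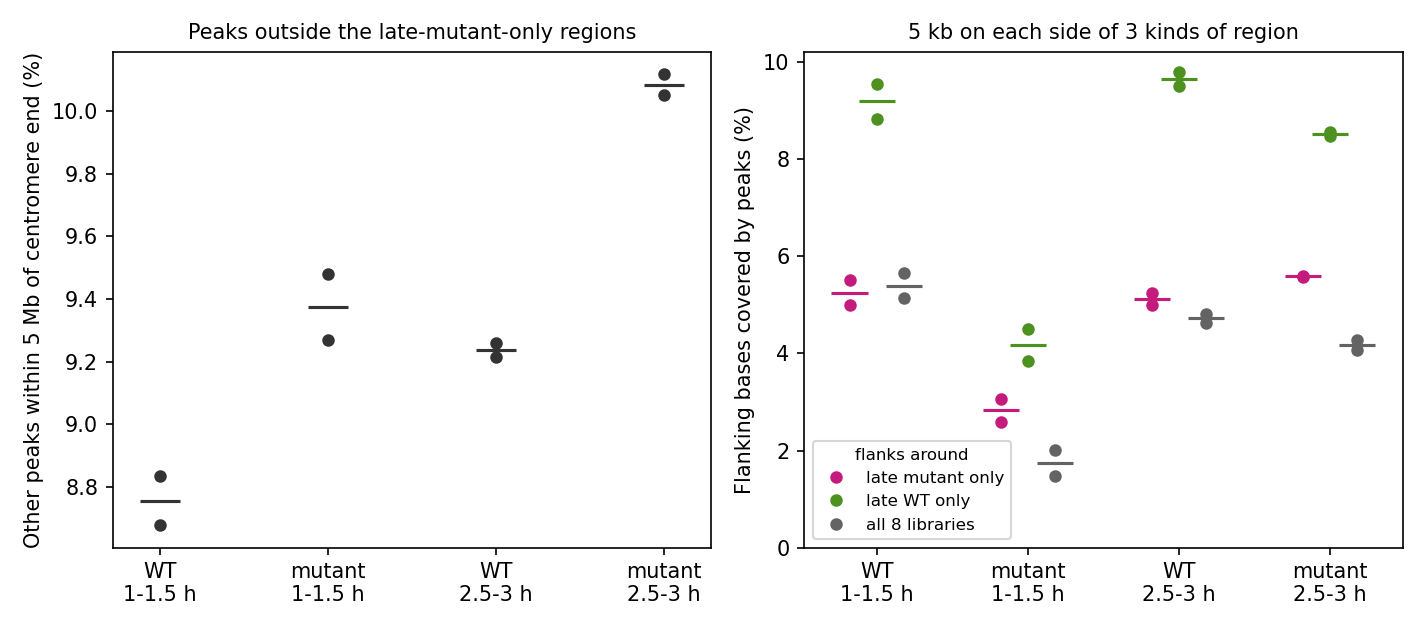
Left, share of long-arm peaks within 5 Mb of the centromere end (y axis, %, axis not from 0) with late-mutant-only regions left out, per library. Right, share of flanking bases covered by peaks (y axis, %) around 3 kinds of region. Points are libraries and bars are means of 2. The late mutant libraries are highest on the left, at 10.05% and 10.12%, and on the right the flanks of late-mutant-only regions are at 5.58% and 5.59% in the late mutant.

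The late-mutant-only regions touched 451 genes, counting genes that hold one or have one within 250 bp of an end, or 2.53% of the 17796 genes. Late-WT-only regions touched 603 genes (3.39%), and 46 genes were touched by both. The 451 genes were long, with a median of 17489 bp against 1694 bp for all genes, and 59.4% of them were among the longest 10% of genes. The genes touched by late-WT-only regions had a median of 6989 bp. Counts by list below are therefore given with late-mutant-only regions per Mb, which was 4.30 per Mb over all genes with their 250 bp windows. Without late mutant replicate 1 or 2 the number of genes was 1134 or 1271, and with genes counted up to 2000 bp from a region it was 689.

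Several genes held a series of late-mutant-only regions. These counts are not corrected for gene length, and rates for single genes were not computed. They should be read beside the 4.30 regions per Mb over all genes. Myo81F, a myosin gene that spans 1966 kb beside the centromere of 3R (567076 to 2532932), held 11, with mean widths of 183.5 to 344.5 bp. All peaks in it numbered 53 and 52 in the late mutant, 26 and 22 in late WT, 27 and 24 in the early mutant and 17 and 10 in early WT. With the 11 regions left out, the late mutant still had 42 and 41. Its neighbour Pzl, which encodes a relative of the mechanically gated channel Piezo (2554162 to 3263582), held 6. Its peaks numbered 31 and 27 in the late mutant, 12 and 13 in late WT, 12 and 10 in the early mutant and 5 and 5 in early WT. In Myo81F and Pzl the late mutant libraries had more peaks than any other.

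Others of this kind lay far from a centromere. The gene vex on X (10967722 to 11039901) held 4 such regions. Its peaks numbered 17 and 14 in the late mutant and 7 and 7 in the early mutant, against a single peak in each of the 4 WT libraries. CG34353 on 3R (27767966 to 27905843) held 4, with 22 and 19 peaks in the late mutant and 19 and 10 in the early mutant, against 5 and 6 in late WT and 2 and 3 in early WT. Sema2b, a secreted axon guidance signal (2R, 16386524 to 16431758), held 4, with 12 and 13 peaks in the late mutant, 10 and 11 in the early mutant, 4 and 3 in late WT and 6 and 5 in early WT. In these 3 genes the mutant libraries were above the WT libraries in both windows. The overlapping genes rg and CG15465, which share 1 span with 4 such regions, went the other way early. Their peaks numbered 12 and 11 in the late mutant and 4 and 4 in late WT, but 3 and 2 in the early mutant and 6 and 5 in early WT. The genes were picked for their late-mutant-only regions, so these counts are not tests.

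Of the 23 genes with 3 or more late-mutant-only regions, 8 lay within 5 Mb of a centromere end. They were Myo81F, Pzl, CG17684 (4 regions), dpr21 (4), AGO3 (3), DIP-lambda (3), Snap25 (3) and sick (3). Peaks in DIP-lambda numbered 8 and 6 in the late mutant and 1 and 1 in late WT. Those in Snap25, a component of the vesicle fusion machinery of synapses, numbered 15 and 15 against 7 and 7. Those in sick numbered 32 and 28 in the late mutant against 26 and 27 in late WT, and were more numerous in early WT (42 and 33). Those in AGO3 differed little, at 11 and 9 against 7 and 8, so with its 3 late-mutant-only regions left out the late mutant had 8 and 6. The 23 count rg and CG15465 as separate genes.

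**Figure D5:**
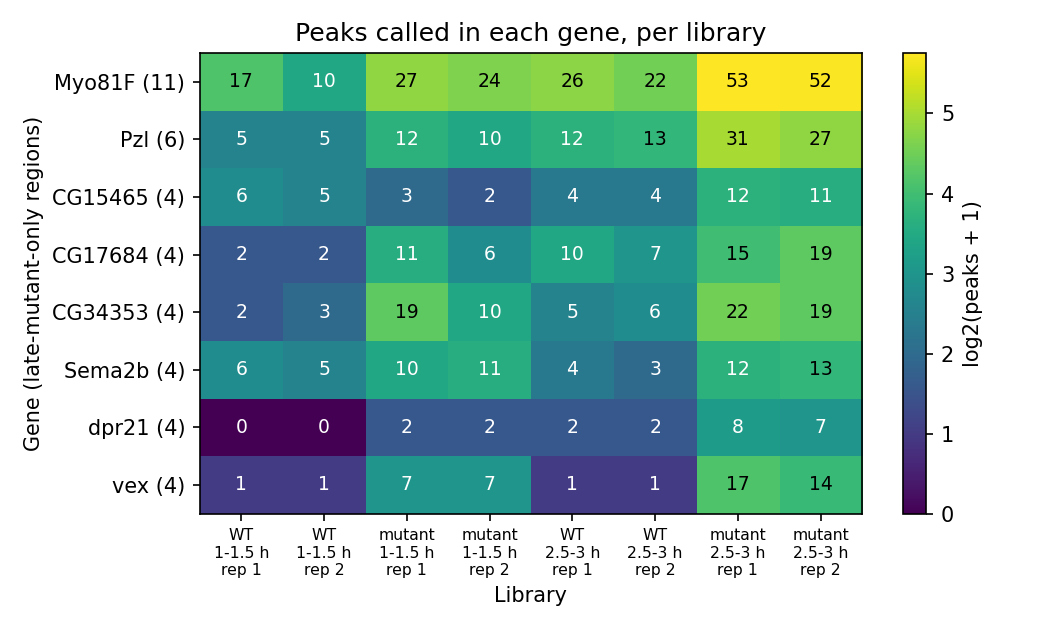
Number of peaks (cell value; colour, log2 of peaks + 1) in each library (x axis) for genes with 4 or more late-mutant-only regions (y axis, that number in brackets; rg shares the span of CG15465). The highest count of each gene lies in a late mutant column (in CG34353 the other late mutant library equals early mutant replicate 1, at 19), such as 53 and 52 in Myo81F, and the early mutant columns are above both WT groups in vex, CG34353 and Sema2b.

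Of the protein-coding groups examined, adhesion and axon guidance had the most genes touched. Of its 80 genes, 14 (17.5%) were touched, against the 2.53% of all genes, but the same number, 14, was touched by late-WT-only regions. These genes are long, with a median of 36933 bp, and per Mb they held 5.27 late-mutant-only regions. Besides dpr21 and dpr8, the widest were in DIP-lambda (509 and 540 bp), a partner of Dpr proteins, and in side, a guidance protein of motor axons (390 and 450 bp). Without late mutant replicate 1 or 2 the count was 24 or 30. Of 35 neural differentiation genes, 8 (22.9%) were touched, and late-WT-only regions touched 3. They held 11.4 regions per Mb. Named by width, these were scrt, a neural zinc finger factor (529 and 536 bp), Fas2, an adhesion protein of axon bundles (231 and 562 bp), Snap25 (304 and 234 bp) and Dscam1, a receptor for self-avoidance (286 and 168 bp). The neural count fell to 5 with peaks of at least 200 bp and to 4 with lists of equal length.

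Ion channel genes were touched in 4 of 42 cases, at 4.82 regions per Mb, and late-WT-only regions touched 6. The potassium channel genes Sh, eag and Shab and the calcium channel gene cac held them, for example at 347 and 312 bp in Sh. Genes of ecdysone metabolism and nuclear receptors were touched in 4 of 30 cases, at 4.33 regions per Mb, and late-WT-only regions touched 3. They were Cyp18a1, which inactivates the hormone (438 and 543 bp), nvd, which acts early in its synthesis (224 and 502 bp), and the receptors ftz-f1 (352 and 558 bp) and Eip75B (148 and 200 bp). The nvd region lay 46110 bp from the nearest late WT peak but 6624 bp from a peak of an early library. The ftz-f1 region lay 120 bp from a peak of an early library.

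Of the genes that pattern the early embryo, those touched mostly held narrow regions. Of 32 gap, pair-rule and segment polarity genes, cad (230 and 168 bp) and nkd (184 and 159 bp) were touched (6.25%, 6.60 regions per Mb). Of 8 Hox genes, pb (448 and 306 bp) and Antp (180 and 164 bp) were (25%, 5.86 per Mb). Of 25 dorsoventral genes, mirr (397 and 305 bp), Ance (190 and 214 bp) and twi (221 and 155 bp) were (12%, 7.97 per Mb). Late-WT-only regions touched 0, 1 and 0 of these lists in the same order. All but Ance held theirs away from the gene ends. None of 19 early zygotic genes was touched. In the Fat, Dachsous and Hippo group, which sets tissue growth and polarity, 3 of 16 genes were touched, at 16.7 regions per Mb, and late-WT-only regions also touched 3. They were app (491 and 223 bp), dachs (350 and 210 bp) and ds (179 and 252 bp), with 3 regions in app alone. Of 41 genes of the JAK/STAT, EGFR, Notch and Wnt pathways, fng, fz4 and N were touched (4.72 regions per Mb), at 302 and 384 bp in fng, and late-WT-only regions touched 2.

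Genes of later tissues held 1 region each where touched, apart from AGO3 with 3. Muscle genes had 3 of 22 (6.30 regions per Mb), in the giant sarcomere proteins bt (462 and 428 bp) and sls (375 and 187 bp) and in Zasp52 (230 and 205 bp). Cuticle genes had 5 of 159 (12.2 per Mb), the widest at Cpr50Ca (267 and 254 bp), and chemosensory genes 4 of 237 (5.96 per Mb), the widest in Ir41a (340 and 508 bp). Among 22 hemocyte, fat body and yolk genes (14.4 per Mb), NimC1, a phagocytic receptor of blood cells, held one of 559 and 519 bp, and Yp1, a yolk protein gene, had one at its end (191 and 272 bp). Of 39 testis genes (17.9 per Mb), Mst89B (228 and 310 bp) and Mst85C (198 and 198 bp) were touched. AGO3 was the only one of 24 germline genes (6.36 per Mb), Hsc70-3 (199 and 149 bp) of 27 heat shock and chaperone genes (10.6 per Mb), and upSET (344 and 519 bp) of 33 promoter and chromatin factors (2.15 per Mb). Late-WT-only regions touched 1, 2, 3, 0, 0, 2, 0 and 6 genes of these 8 lists in the same order.

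No late-mutant-only region touched any of 14 Integrator subunit, 93 ribosomal protein, 25 follicle cell, 41 gut enzyme, 40 immune, 274 snoRNA and scaRNA or 260 microRNA genes. Their median gene lengths were 3413.5 bp for the Integrator list and 92 to 1318 bp for the others. Late-WT-only regions touched 3, 4, 1, 0, 0, 4 and 4 of them in the same order. Among 295 tRNA genes, tRNA:Tyr-GTA-2-1 had one (5.89 per Mb), 87 bp from a late WT peak, and among 32 snRNA genes snRNA:U5:38ABa had one (46.7 per Mb). Late-WT-only regions touched 9 and 0 of them. Such genes occur in near-identical copies, so a peak at one copy is uncertain. Both regions also lay inside longer protein-coding genes, the tRNA one in Abca3 and the U5 one in sick, as 1 of its 3. Long noncoding RNA genes had 17 of 1946 and antisense RNA genes 6 of 503, at 3.78 and 4.25 regions per Mb, and late-WT-only regions touched 33 and 8. As ATAC-seq peaks carry no strand, regions shared by a gene and its antisense partner, such as the one at Yp1 and asRNA:CR45601, cannot be assigned to either.

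The regions just inside the rule lay very close to peaks of other libraries. The nearest such peak was within 100 bp of 11 of the 642 regions and within 1000 bp of 261, at a median of 1382.5 bp. The closest were inside Pkn with CG34141 and inside CG6847, each 19 bp from a peak of an early library. To late WT peaks alone the median distance was 3255.5 bp, and 156 regions (24.3%) were more than 10 kb away. The widest regions just outside the rule were at Elba3, with 1101 and 1311 bp in the late mutant and 121 bp in early mutant replicate 1, and in Appl, with 1105 and 1183 bp and 254 bp in early mutant replicate 2. A region in out had 947 and 1068 bp in the late mutant and 467 bp in early WT replicate 1. A region in Eip63E, with 966 and 696 bp in the late mutant, was kept out by a peak of 105 bp in early mutant replicate 2.

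Late-mutant-only regions also lay apart from each other. Their median distance to the next one was 54407 bp, and 92 (14.3%) had another within 10 kb. Late-WT-only regions were spaced about as widely, at a median of 54617 bp, and 120 (18.6%) had another within 10 kb.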

How the data were processed

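The authors deposited 1 list of ATAC-seq peaks per library, with chromosome, start and end in base pairs and no count, score or summit. Per the submitters' processing notes, the build is dm6 and the tools include MACS2 2.2.7.1, Bowtie2 2.2.5, Trimmomatic 0.39, deepTools 3.5.1 and SAMtools 1.18. The shift for transposase cuts and the handling of duplicates and repeats are settings not given in the sources used here. Coordinates are 1-based. Gene spans came from a RefSeq table of the Release 6 assembly (17796 genes on the chromosomes used), which gives no strand or exons.

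Peaks were merged at 1 bp with Python 3.11.15, and values per library were compared with exact permutation tests in scipy 1.17.1. Benjamini-Hochberg adjustment covered 16 tests. Merging and the rule were checked on simulated peak lists, and the place relative to genes and the flank cover on a few made-up regions. The members and the 29 gene lists were chosen with earlier results of these data known, and 18 list entries had no match in the table. The text names the 20 widest regions, up to 4 genes per list by width and, chosen after their values were seen, genes with several regions. Sequence and motif content were not analysed here.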

Additional observations from a re-analysis of the deposited data

Results flagged for a closer look

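In the 5 kb flanks of the late-mutant-only regions, the difference between mutant and WT took opposite directions in the 2 windows. At 2.5 to 3 h peaks covered 0.466 percentage points more in the mutant, with both mutant libraries above both WT libraries. At 1 to 1.5 h the mutant minus WT difference was -2.42 points, with both mutant libraries below both WT libraries. The early difference was negative in other flanks too, at -5.03 points around late-WT-only and -3.66 around all-library regions. There the late differences were also negative, at -1.13 and -0.548 points. The difference between the windows gave p = 0.0556, the smallest that 36 arrangements allow (exact two-sided permutation test, n = 2 per group, adjusted p = 0.222). The early mutant lists were shorter, at 18706 and 15569 peaks, and covered 4486 and 3712 kb against 8913 and 8189 kb in early WT. The part of list length in this result was not tested.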

How the results depend on the processing

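Depth is unknown, so what the lists could not detect cannot be stated. Peaks of at least 160 bp, peaks of at least 200 bp and lists of equal length gave 823, 783 and 538 regions. The 20 widest regions met the rule under every setting run, which says little about them. They were chosen for their width, which limits on peak width and equal list lengths favour, and leaving out a library only loosens the rule. Peaks of at least 200 bp gave 18.8% at gene ends, 20.6% within 5 Mb of the centromere end and a median width of 304.5 bp. Equal list lengths gave 18.4% at gene ends, 56.1% inside genes and 317 bp, and peaks of at least 160 bp gave 266.5 bp. Gene ends of 500 bp gave 20.2% at gene ends and 56.1% inside genes. Limits of 2 and 8 Mb, added after the data were seen, gave 6.92% and 34.4%. Leaving out each library in turn gave 717 to 1924 regions, 11.5% to 16.1% at gene ends, 60.4% to 68.1% inside genes, 18.2% to 22.2% on X, 18.2% to 24.2% within 5 Mb, and median widths of 212 to 253.5 bp. The late difference in flank cover ranged from -0.166 to 0.515 points, and it was reversed without late mutant replicate 1 (-0.166) and replicate 2 (-0.165). Those 2 values come from other sets of regions, 1640 and 1924, since the rule was applied anew. The cause was not tested. The flank difference was 0.193 points with peaks of at least 200 bp and 0.262 with equal list lengths. The late difference in other peaks within 5 Mb ranged from 0.445 to 0.856 points. As a replicate block, same-numbered libraries gave the same differences, 0.466 and 0.847 points, with an exact p of 0.5, the smallest possible with 2 pairs. The labels give no basis for pairing beyond the number. Motif counts were not run.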
